A study of Mus musculus with 10 samples.

Results

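The CUT&Tag peaks assigned to 10 genes of histone deacylases were examined in explanted mouse retina. The genes were Hdac1, Hdac2, Hdac3, Hdac4, Hdac5, Hdac9, Hdac11, Sirt1, Sirt2 and Sirt3, and every peak carrying one of these symbols in the deposited annotation was taken, whatever its signal. These were 76 of 108253 peaks, of which 13 were annotated as promoters and 63 lay elsewhere. Hdac4 held 31 of them, Hdac9 17, Hdac5 and Sirt1 7 each, Hdac2 and Hdac11 4 each, Hdac1 and Sirt2 2 each, and Hdac3 and Sirt3 1 each. Promoters made up 17.1% of the deacylase peaks and 15.8% of all peaks. The annotation gives each peak to its nearest gene, and 14 of the 76 peaks lay outside every annotated gene, 10 of them assigned to Hdac4.

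Histone deacylases remove acyl groups from lysines and so erase marks such as acetylation. The zinc-dependent HDACs fall into classes: HDAC1, HDAC2 and HDAC3 (class I) are the catalytic subunits of nuclear corepressor complexes, HDAC4, HDAC5 and HDAC9 (class IIa) move between nucleus and cytoplasm and have weak deacetylase activity of their own, and HDAC11 is the only class IV enzyme. The sirtuins use NAD+ as a cosubstrate, which ties them to the redox state of the cell, and class I HDACs as well as SIRT1, SIRT2 and SIRT3 have been described as removing lactyl groups in addition to acetyl groups.

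Wild-type C57BL/6J retinas were taken at P28, with sclera and pigment epithelium removed, and kept for 48 h in Neurobasal-A with 5 mM or 25 mM glucose. The 2 levels differed in nothing else that the labels state, no gene was altered in any group, and all libraries are labelled as a single batch. H3K18La (lactylated lysine 18 of histone H3) was profiled in 3 libraries per glucose level and H3K27Ac (acetylated lysine 27) in 2. The labels do not say whether replicates came from separate animals or cultures, so p-values measure the spread between these libraries. The explant is whole retina, in which less mark per cell and fewer cells carrying the mark cannot be told apart.

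Signal was measured as RPKM, reads per kilobase of peak scaled to a total for each library. This allows levels of peaks of different length to be compared. The totals recovered from the RPKM values lay between 1358008 and 7424470 reads. Whether normalization factors enter them is not known, so they may not be plain read totals. Against these totals, the reads in peaks were 11.8% to 12.01% for H3K18La at 5 mM and 31.2% to 35.0% at 25 mM. For H3K27Ac they were 21.1% and 31.5% at 5 mM and 69.5% and 56.5% at 25 mM. Fold changes were above 0 at 59976 of 65614 tested peaks for H3K18La and at 65080 of 72442 for H3K27Ac. The leading promoters of the 7 rod markers were all higher at 25 mM for both marks, with a median log2 fold change of 2.48 for H3K18La and 2.25 for H3K27Ac. Their summed RPKM ranged from 10.2 to 14.7 at 5 mM and from 50.6 to 134 at 25 mM for H3K18La, and from 42.7 to 75.0 and 208 to 396 for H3K27Ac. For H3K18La and H3K27Ac respectively, cone markers were higher in 1 of 5 and 2 of 4 tested promoters, Mueller glia in 0 of 4 and 2 of 4, bipolar cells in none tested and 4 of 4, and amacrine cells in 1 of 1 for each mark. Endothelium had 0 of 2 for each mark and pigment epithelium 0 of 1 for each. Microglia had 0 of 1 for H3K18La alone and lens 0 of 1 for H3K27Ac alone, and ganglion cell promoters were too weak to test. The endothelial log2 fold changes were -1.80 and -1.25 at Cldn5 and 0.36 and -0.60 at Cdh5. Over all genes with a tested leading promoter, 32.6% were higher for H3K18La and 59.1% for H3K27Ac. The pigment epithelium genes Rpe65, Ttr, Mlana and Tyr had no promoter peak. The part of cell composition in the changes at deacylase genes was not tested.

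To show what the antibodies mapped, 5 promoter windows and the centres of 2 intronic peaks are given 5′ to 3′. RefSeq windows (GRCm38.p6, 300 bases around a start, mostly upstream) were found for 8 of the 10 genes, and 8 of their 10 windows lay wholly inside a deacylase peak. Capitals mark a GC box (GGGCGG or its reverse complement CCGCCC) or a CRX-type motif (TAATCC or GGATTA), which do not overlap each other here. The Hdac2 (chr10:36974294-36974593, + strand), Hdac9 (chr12:34528840-34529139, - strand) and Sirt2 (chr7:28766502-28766801, + strand) windows are shown because H3K18La rose over them. The Hdac4 (chr1:92180292-92180591, - strand) and Sirt3 (chr7:140881820-140882119, - strand) windows are shown because H3K27Ac rose there and H3K18La did not pass its test or was too weak for one. Hdac9 peak 8 (chr12:34516963-34517262, + strand) and Sirt2 peak 2 (chr7:28780869-28781168, + strand) are the centres of intronic peaks with large rises, where peaks of a gene are numbered along the chromosome.
Hdac2 promoter: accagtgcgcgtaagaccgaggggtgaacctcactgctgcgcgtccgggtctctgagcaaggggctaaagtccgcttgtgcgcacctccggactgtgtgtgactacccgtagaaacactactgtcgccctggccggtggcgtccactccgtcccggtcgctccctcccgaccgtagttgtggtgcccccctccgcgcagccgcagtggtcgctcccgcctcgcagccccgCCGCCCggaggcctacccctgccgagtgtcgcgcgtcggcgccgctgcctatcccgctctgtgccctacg
Hdac9 promoter: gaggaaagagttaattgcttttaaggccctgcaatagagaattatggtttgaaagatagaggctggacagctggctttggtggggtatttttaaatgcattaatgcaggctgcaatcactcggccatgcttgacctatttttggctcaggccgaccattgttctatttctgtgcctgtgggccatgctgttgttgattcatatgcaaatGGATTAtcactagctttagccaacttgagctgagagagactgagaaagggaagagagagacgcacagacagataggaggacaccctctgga
Sirt2 promoter: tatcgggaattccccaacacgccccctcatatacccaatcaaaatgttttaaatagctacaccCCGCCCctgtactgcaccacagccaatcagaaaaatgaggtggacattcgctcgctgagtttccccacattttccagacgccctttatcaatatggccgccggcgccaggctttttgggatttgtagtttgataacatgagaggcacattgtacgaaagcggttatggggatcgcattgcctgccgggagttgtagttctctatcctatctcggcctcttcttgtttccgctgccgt
Hdac4 promoter: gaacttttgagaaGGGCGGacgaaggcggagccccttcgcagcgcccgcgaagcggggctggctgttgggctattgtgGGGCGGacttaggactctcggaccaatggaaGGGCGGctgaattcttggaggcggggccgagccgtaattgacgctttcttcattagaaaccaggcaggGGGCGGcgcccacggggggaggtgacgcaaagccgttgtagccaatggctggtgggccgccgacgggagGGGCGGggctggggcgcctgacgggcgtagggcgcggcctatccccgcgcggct
Sirt3 promoter: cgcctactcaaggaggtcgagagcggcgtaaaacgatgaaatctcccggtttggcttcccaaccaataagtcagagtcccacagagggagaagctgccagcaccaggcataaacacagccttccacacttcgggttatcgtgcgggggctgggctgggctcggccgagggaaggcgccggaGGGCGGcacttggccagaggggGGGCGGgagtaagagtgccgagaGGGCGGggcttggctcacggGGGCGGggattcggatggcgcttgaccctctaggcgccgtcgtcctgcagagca
Hdac9 peak 8: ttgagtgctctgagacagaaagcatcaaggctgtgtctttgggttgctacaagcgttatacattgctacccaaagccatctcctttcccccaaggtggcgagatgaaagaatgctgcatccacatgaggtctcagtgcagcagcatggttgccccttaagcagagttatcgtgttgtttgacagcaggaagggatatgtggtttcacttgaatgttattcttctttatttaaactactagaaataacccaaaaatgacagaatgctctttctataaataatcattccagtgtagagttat
Sirt2 peak 2: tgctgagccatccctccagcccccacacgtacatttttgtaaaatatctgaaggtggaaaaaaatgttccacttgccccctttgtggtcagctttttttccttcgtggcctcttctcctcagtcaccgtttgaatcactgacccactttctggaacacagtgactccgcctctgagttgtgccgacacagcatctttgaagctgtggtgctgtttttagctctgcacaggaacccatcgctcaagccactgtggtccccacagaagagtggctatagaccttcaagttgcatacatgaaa

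The Hdac9 window differed in composition from the other promoter windows shown. Its GC content was 45.3% and its CpG observed over expected ratio 0.205, against a median of 52.7% and 0.384 over all 32851 RefSeq windows. The Hdac2 window reached 69.7% GC with a ratio of 1.01, Hdac4 68.0% with 0.982, Sirt3 64.7% with 0.789 and Sirt2 50.0% with 0.872. GC boxes occurred 5 times in the Hdac4 window, 4 times in Sirt3, 1 time each in Hdac2 and Sirt2, and 0 times in Hdac9, where 1 CRX-type match was found. A GC box was present in 7 of the 10 deacylase windows and in 35.7% of all RefSeq windows, and a CRX-type match in 1 of 10 and 7.06%. Among the central 300 bases of promoter peaks, 9 of 13 deacylase peaks and 44.8% of all promoter peaks held a GC box. Among non-promoter peaks it was 1 of 63 (1.59%) against 5.54%. In the central 300 bases of the 63 non-promoter deacylase peaks, 8 held a CRX-type match (12.7%), near the 12.3% of all 91109 non-promoter peaks. Neither intronic sequence shown holds one of the motifs. These letters say only what is in the windows.

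The first comparison asked whether H3K18La at deacylase genes differed between glucose levels. Lactylation was higher at 25 mM in 12 deacylase peaks and lower in 0, among them the promoters of Hdac2, Hdac5, Hdac9 and Sirt2. The 12 are of 45 peaks tested, which is 26.7%, while 37.3% of all tested peaks were called higher and 0.0869% lower. Among promoter peaks 4 of 10 were higher, against 33.3% of all promoters, and among other peaks 8 of 35, against 38.2%. The median log2 fold change was 0.94 over the tested deacylase peaks and 1.10 over all tested peaks, but scaling each library to its reads in peaks turned the first to -0.18 and brought the second to 0.03, and centring on the median left 0.03 and 0.19. No deacylase peak with a negative fold change had an unadjusted p under 0.05 in limma or voom. Without any test, all 25 mM libraries lay above all 5 mM libraries in 31 of 76 peaks (36.6% over all peaks) and below them in 0 (0.821% over all peaks). Signal was thin: 33 of the 76 peaks held at most 3 reads in every 5 mM library, 31 were under the mean RPKM of 1 needed for testing, and a peak could reach that mean through its 25 mM libraries alone. Under either scaling above 0 deacylase peaks were called, after thinning to equal depth 4 (with a median of 0.88), and without replicate 2 or 3 at 25 mM 6.

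For H3K27Ac, 21 deacylase peaks were higher at 25 mM and 0 lower, including the leading promoters of 8 of the 10 genes. The 21 are of 64 tested, or 32.8%, close to the 33.9% of all peaks that were called higher (0.164% lower). Promoters took a larger part, as they did in the whole table: 10 of 13 deacylase promoters were higher, against 57.0% of all promoters, and 11 of 51 other peaks, against 27.8%. The median log2 fold change was 0.78, beside 0.84 over all tested peaks, and these became -0.36 and -0.22 when libraries were scaled to reads in peaks and 0.09 and 0.15 when centred. All 25 mM libraries lay above the 5 mM libraries in 50 of 76 peaks (53.0% over all peaks) and below them in 4 (6.37% over all peaks), which were Hdac2 peak 2 and Hdac9 peaks 2, 5 and 14. Of the 8 tested peaks with a negative fold change, 0 had an unadjusted p under 0.05 in limma and 1 in voom. With 2 libraries per level the spread was taken wholly from the trend over all peaks. The count was 0 after thinning or without the minimum, where the median log2 fold change stayed at 0.85 and 0.75, and it was 0 scaled to reads in peaks and 1 centred, where the median fell as given above. For H3K27Ac, a fit with a library left out has 1 library at a level, so its spread comes from the other level alone. Calls in such fits depend on that level and say little of a single peak. The median log2 fold change was 0.73 without replicate 1 at 25 mM and 0.72 without replicate 2. It was 0.58 without replicate 1 at 5 mM and 0.96 without replicate 2. Leaving out replicate 2 at 5 mM alone let other changes pass, among them those of Hdac1 peak 1, the Hdac3 promoter, Hdac4 peak 14, Hdac5 peak 3 and Hdac9 peak 8.

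**Figure D1:**
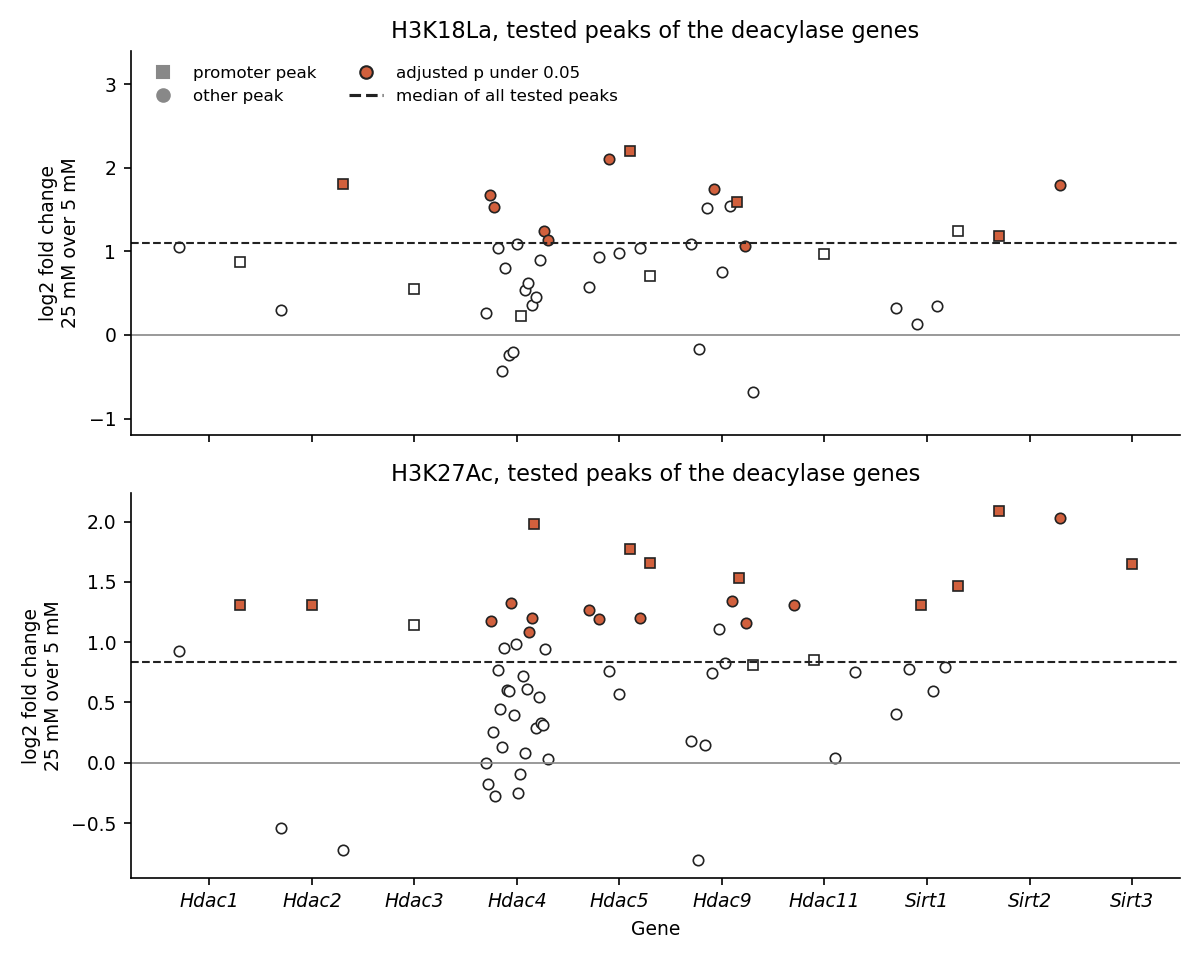
Log2 fold change (25 mM over 5 mM) of each tested deacylase peak by gene, for H3K18La (45 peaks, top) and H3K27Ac (64 peaks, bottom), in the order of the peaks along the chromosome. Squares are promoters, circles other peaks, filled symbols passed an adjusted p of 0.05, and the dashed line is the median of all tested peaks (1.10 and 0.84), and the filled symbols lie close to it or above.

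Of the class I genes, Hdac2 had a promoter that rose for both marks and stood among the strongest in the table. HDAC2 and its close relative HDAC1 form the catalytic core of the CoREST, SIN3 and NuRD complexes. The Hdac2 promoter peak (chr10:36973853-36975423) measured 2.72, 2.95 and 1.87 RPKM for H3K18La at 5 mM and 16.8, 9.08 and 6.22 at 25 mM. The groups were far apart, and replicate 1 at 25 mM was the highest library. The log2 fold change was 1.80 (SE 0.38, limma adjusted p = 0.00409), and it passed in all 6 fits with a library left out. Scaled to reads in peaks it was 0.50 (limma adjusted p = 0.610), centred 0.89 (limma adjusted p = 0.215), and after thinning 1.49 (limma adjusted p = 0.0771). Its H3K27Ac values were 9.42 and 16.6 RPKM at 5 mM and 48.1 and 21.0 at 25 mM, again without overlap although the 25 mM libraries differed from each other by more than 2-fold. The log2 fold change was 1.31 (SE 0.53, limma adjusted p = 0.0411), and it passed in 1 of 4 fits with a library left out, with an adjusted p of up to 0.638. The strongest non-promoter peak of Hdac2 by its mean over the 10 libraries, Hdac2 peak 2 in an intergenic region at -55420 bp from the start, held 1.00 ± 0.13 and 1.344 ± 0.14 RPKM of H3K18La (SD, n = 3) and 1.87 ± 0.22 and 1.16 ± 0.48 of H3K27Ac (SD, n = 2). Its change passed for neither mark.

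At the Hdac1 promoter (chr4:129542190-129543082), H3K27Ac rose while H3K18La did not pass the test. H3K27Ac was 4.40 and 6.13 RPKM at 5 mM and 17.4 and 10.6 at 25 mM, so the log2 fold change was 1.30 (SE 0.48, limma adjusted p = 0.0266). Scaled to reads in peaks this change was 0.10 (limma adjusted p = 0.875). H3K18La was 1.06, 1.08 and 0 RPKM at 5 mM and 0.570, 2.48 and 1.89 at 25 mM. These groups overlapped, the pooled reads were 7 and 15, and the change did not pass (log2 fold change 0.87, SE 0.68, limma adjusted p = 0.311). An intronic peak, Hdac1 peak 1 (intron 3), had H3K18La of 1.08 ± 0.13 RPKM at 5 mM and 2.95 ± 1.337 at 25 mM (SD, n = 3) and did not pass (limma adjusted p = 0.0746), although it did in voom (adjusted p = 0.0163) and, narrowly, without replicate 1 at 25 mM (limma adjusted p = 0.0472). For H3K27Ac it held 6.69 ± 0.87 and 13.3 ± 2.63 RPKM (SD, n = 2; limma adjusted p = 0.118).

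The only Hdac3 peak, its promoter at chr18:37954345-37956015, did not pass for either mark. HDAC3 is the enzyme of the NCoR and SMRT corepressor complexes. H3K18La was 1.13, 1.27 and 0.881 RPKM at 5 mM and 1.83, 3.09 and 1.01 at 25 mM, which overlapped (log2 fold change 0.55, SE 0.47, limma adjusted p = 0.358). H3K27Ac was 4.84 and 5.97 against 15.8 and 9.83 RPKM. These did not overlap, and the log2 fold change of 1.14 (SE 0.48) fell just short of the threshold at a limma adjusted p of 0.05004 and passed in voom (adjusted p = 0.0306). The peak also covers starts of Rell2 on the opposite strand, and CUT&Tag reads cannot be assigned to a strand.

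**Figure D2:**
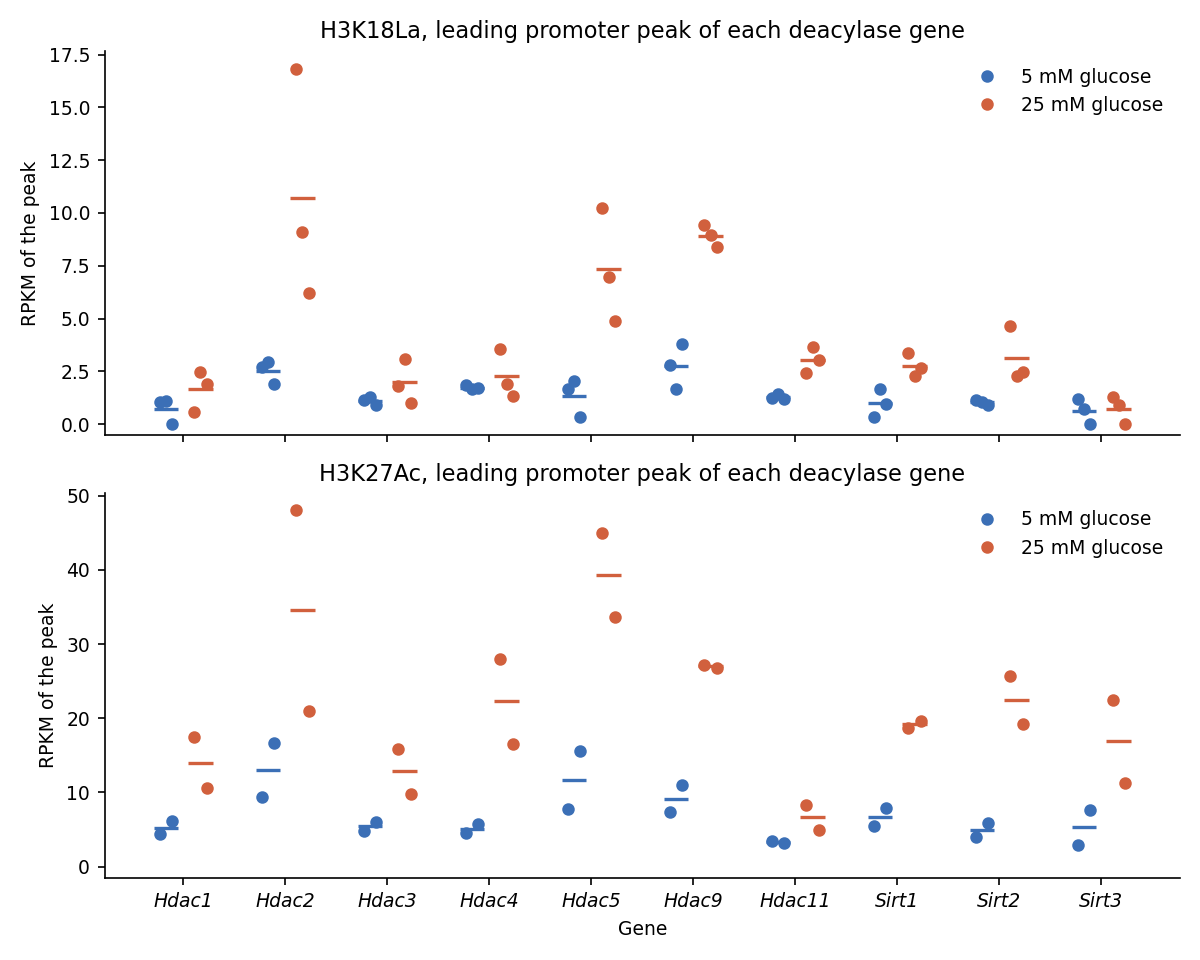
RPKM in every library at the leading promoter peak of each gene, meaning its promoter peak with the highest mean over the 10 libraries, for H3K18La (3 libraries per level, top) and H3K27Ac (2 per level, bottom). Points are libraries and bars are means. For H3K18La the levels separate most widely at Hdac2, Hdac5 and Hdac9, and for H3K27Ac no gene overlaps. H3K27Ac also separated without overlap at most of all 17144 promoter peaks. Libraries of the higher glucose level lay above those of the lower level at 13455 of them and below at 366.

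Of the class IIa genes, Hdac5 and Hdac9 had promoters that rose for both marks. Class IIa enzymes bind MEF2 transcription factors and leave the nucleus when phosphorylated. The leading Hdac5 promoter peak, Hdac5 peak 5 (chr11:102217891-102220179), lies over an internal start of the gene. It measured 1.66, 2.02 and 0.322 RPKM of H3K18La at 5 mM and 10.2, 6.98 and 4.86 at 25 mM. All 25 mM libraries exceeded all 5 mM libraries, and the log2 fold change was 2.20 (SE 0.48, limma adjusted p = 0.00497), which passed in all 6 fits with a library left out and was 1.69 without replicate 3 at 5 mM. The call was lost when libraries were scaled to reads in peaks (log2 1.05), centred (1.29) or thinned (1.97, limma adjusted p = 0.0635). H3K27Ac there was 7.78 and 15.5 RPKM at 5 mM and 45.0 and 33.6 at 25 mM (log2 fold change 1.77, SE 0.53, limma adjusted p = 0.00735). At the upstream start, which holds the RefSeq window (Hdac5 peak 7, chr11:102229428-102230653, shared with Mir8101), H3K27Ac rose from 5.75 ± 0.14 to 19.6 ± 5.96 RPKM (SD, n = 2; limma adjusted p = 0.00737). H3K18La at that start was 1.55, 1.42 and 1.20 RPKM at 5 mM and 5.81, 1.40 and 1.92 at 25 mM. Replicate 1 at 25 mM alone stood apart there, and the change did not pass (log2 fold change 0.71, SE 0.49, limma adjusted p = 0.259).

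Hdac5 also rose for lactylation at a non-promoter peak, where the size of the change rested in part on 1 library. Hdac5 peak 3 (chr11:102213528-102213972), annotated to a 3′ UTR, measured 3.20, 2.60 and 0 RPKM of H3K18La at 5 mM and 4.57, 8.29 and 9.85 at 25 mM. The log2 fold change was 2.11 (SE 0.66, limma adjusted p = 0.0272), and it passed in 4 of 6 fits with a library left out, the highest adjusted p being 0.0908. Without replicate 3 at 5 mM, the library at 0, it was 1.19, and the call was lost under both scalings (1.08 and 1.20) and after thinning (1.58). H3K27Ac was already high there at 5 mM, with 11.4 and 19.5 RPKM against 26.2 and 25.1, and did not pass (log2 fold change 0.76, SE 0.53, limma adjusted p = 0.243). Over all 7 Hdac5 peaks, 2 rose for H3K18La and 5 for H3K27Ac, beside 37.3% and 33.9% of all tested peaks.

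Hdac9 held a strong deacylase peak outside its promoters, which rose for H3K18La. This was Hdac9 peak 8 (chr12:34516812-34517413) in intron 2, whose central bases are printed above. With a mean of 15.7 RPKM over the 10 libraries it ranked first among non-promoter peaks, although Sirt2 peak 2 was higher for H3K27Ac at 25 mM (37.1 against 34.4 RPKM) and Hdac9 peak 9 for H3K18La at 5 mM (5.98 against 4.03 RPKM). H3K18La measured 3.94, 4.49 and 3.67 RPKM there at 5 mM and 14.4, 13.9 and 15.7 at 25 mM. Replicates lay close together on both sides, the log2 fold change was 1.74 (SE 0.24, limma adjusted p = 0.000588), and the adjusted p stayed at or below 0.00523 with any library left out. It passed after thinning and not under either scaling (0.39 scaled to reads in peaks, 0.83 centred). H3K27Ac was 12.7 and 19.3 RPKM against 32.8 and 36.0, apart but not past the threshold (log2 fold change 1.11, SE 0.53, limma adjusted p = 0.0872; voom adjusted p = 0.0426). The Hdac9 promoter peak over the downstream start (Hdac9 peak 11, chr12:34526857-34529387) rose for both marks. H3K18La was 2.81, 1.68 and 3.78 RPKM at 5 mM and 9.45, 8.94 and 8.39 at 25 mM (log2 fold change 1.59, SE 0.33, limma adjusted p = 0.00383), which passed in all 6 fits with a library left out and after thinning but not under either scaling (0.29 and 0.68). H3K27Ac was 7.31 and 11.01 against 27.1 and 26.8 RPKM (log2 fold change 1.54, SE 0.51, limma adjusted p = 0.0155). The promoter peak over an upstream start, Hdac9 peak 17, was weak in every group, with H3K18La of 0.638 ± 0.884 and 0.481 ± 0.329 RPKM (SD, n = 3), which was too low to test, and H3K27Ac of 0.786 ± 0.479 and 1.77 ± 0.914 RPKM (SD, n = 2; limma adjusted p = 0.222). Hdac9 peak 10, in the same intron as peak 8, rose for H3K27Ac from 4.77 ± 0.17 to 12.9 ± 1.41 RPKM (SD, n = 2; log2 fold change 1.344, limma adjusted p = 0.0215), while its H3K18La of 1.315 ± 1.43 and 3.64 ± 0.96 RPKM (SD, n = 3) did not pass (limma adjusted p = 0.0655). That call changed with the processing: it passed in voom (adjusted p = 0.0280) and without replicate 3 at 5 mM, and the log2 fold change lay between 0.81 and 2.18 with a library left out.

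At the Hdac4 promoter acetylation rose, and the change in lactylation did not pass the test. At the promoter peak (chr1:92180020-92181309), whose start window holds 5 GC boxes, H3K27Ac was 4.48 and 5.74 RPKM at 5 mM and 28.02 and 16.5 at 25 mM. The log2 fold change was 1.98 (SE 0.49, limma adjusted p = 0.00172), became 0.77 when libraries were scaled to reads in peaks (limma adjusted p = 0.198) and 1.296 when centred, and passed in 2 of 4 fits with a library left out. H3K18La was 1.84, 1.65 and 1.71 RPKM at 5 mM and 3.55, 1.91 and 1.31 at 25 mM. The 25 mM libraries lay on both sides of the 5 mM libraries, and the log2 fold change was 0.22 (SE 0.43, limma adjusted p = 0.685), turning to -0.10 without replicate 1 at 25 mM and to -0.95 and -0.69 when libraries were scaled to reads in peaks or centred. The non-promoter peak with the highest mean over the 10 libraries, Hdac4 peak 14 in intron 1, held H3K18La of 1.71 ± 1.06 and 3.25 ± 1.53 RPKM (SD, n = 3; limma adjusted p = 0.193) and H3K27Ac of 4.15 ± 0.58 and 8.82 ± 2.54 RPKM (SD, n = 2; limma adjusted p = 0.0791). For H3K18La at 25 mM, Hdac4 peak 9 in the same intron was higher. It measured 1.68, 1.59 and 0.868 RPKM at 5 mM and 4.499, 5.22 and 4.77 at 25 mM (log2 fold change 1.53, SE 0.37, limma adjusted p = 0.00813), and this rise passed in all 6 fits with a library left out but not scaled to reads in peaks (0.34) or centred (0.62). H3K27Ac at peak 9 did not pass (limma adjusted p = 0.0716). Hdac4 peak 12, also in intron 1, rose for H3K27Ac from 1.25 ± 1.09 to 3.44 ± 0.13 RPKM (SD, n = 2; log2 fold change 1.321, limma adjusted p = 0.0135). Its H3K18La, with 2 and 8 pooled reads, was too low to test.

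Beyond these, the 31 Hdac4 peaks spread over 331 kb and the 17 Hdac9 peaks over 707 kb, and most were weak. The median Hdac4 peak held 1.04 and 1.33 RPKM of H3K18La and 1.93 and 3.24 of H3K27Ac at 5 and 25 mM. The median Hdac9 peak held 0.976 and 1.06 RPKM of H3K18La and 1.61 and 1.77 of H3K27Ac. At Hdac4, 4 of 17 tested peaks rose for H3K18La and 5 of 28 for H3K27Ac, with median log2 fold changes of 0.62 and 0.50. At Hdac9 it was 3 of 9 and 3 of 10, with medians of 1.09 and 0.82. Over all tested peaks 37.3% and 33.9% were higher, with medians of 1.10 and 0.84, so the shares of called peaks at both genes were no larger than in the whole table. The highest mean levels of Hdac9 lay in the promoter and the intron beside it for both marks, whereas at Hdac4 the promoter exceeded the other peaks for H3K27Ac but not for H3K18La.

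**Figure D3:**
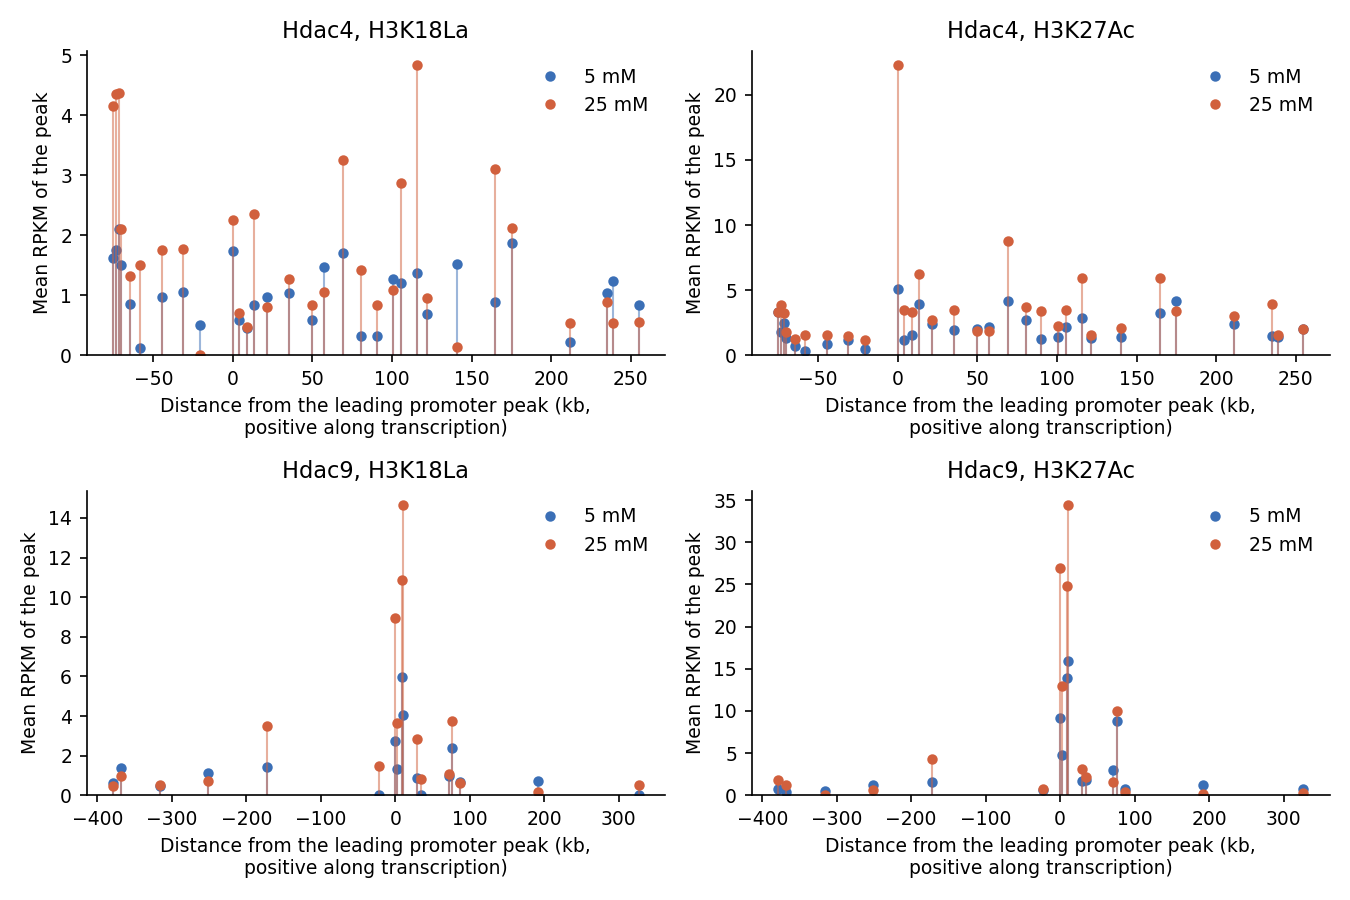
Mean RPKM of every Hdac4 (31, top) and Hdac9 (17, bottom) peak at 5 mM (blue) and 25 mM (orange), against its distance in kb from the leading promoter peak, positive in the direction of transcription. The highest Hdac9 peaks for both marks lie at or near 0 kb on the transcribed side, reaching 14.6 RPKM for H3K18La and 34.4 for H3K27Ac at 25 mM, whereas the Hdac4 promoter is the highest peak for H3K27Ac (22.3 RPKM) but not for H3K18La.

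Hdac11, a defatty-acylating enzyme with strong expression in brain, had a promoter whose groups separated without passing the test for either mark. The promoter peak (chr6:91155529-91157415) measured 1.26, 1.43 and 1.17 RPKM of H3K18La at 5 mM and 2.43, 3.65 and 3.04 at 25 mM. The log2 fold change was 0.97 (SE 0.38, limma adjusted p = 0.0630), and voom on the recovered reads gave an adjusted p of 0.0133. H3K27Ac was 3.43 and 3.24 against 8.25 and 5.00 RPKM (log2 fold change 0.85, SE 0.44, limma adjusted p = 0.114). The intergenic Hdac11 peak 1, at -2617 bp from the start, rose for H3K27Ac from 2.12 ± 0.81 to 5.85 ± 0.94 RPKM (SD, n = 2; log2 fold change 1.30, limma adjusted p = 0.0134). Its H3K18La rested on 4 and 7 pooled reads and was too low to test.

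Among the sirtuins, Sirt2 rose for both marks at its promoter and in its gene body. SIRT2 is mainly cytoplasmic, deacetylates tubulin and enters the nucleus during mitosis. The promoter peak (chr7:28766272-28767908) measured 3.96 and 5.90 RPKM of H3K27Ac at 5 mM and 25.6 and 19.3 at 25 mM (log2 fold change 2.09, SE 0.49, limma adjusted p = 0.001004). Scaled to reads in peaks this was 0.88 (limma adjusted p = 0.151), and it passed in 2 of 4 fits with a library left out. H3K18La was 1.16, 1.06 and 0.8997 RPKM at 5 mM and 4.66, 2.25 and 2.47 at 25 mM. The groups did not overlap, the log2 fold change was 1.18 (SE 0.42, limma adjusted p = 0.0442), and this call was lost in each of the 6 fits with a library left out (limma adjusted p from 0.0644 to 0.169). This fold change became 0.061 (log2) when libraries were scaled to reads in peaks and 0.27 when centred. The peak also covers starts of Nfkbib on the opposite strand. Sirt2 peak 2 (chr7:28780182-28781855, intron 8), whose centre is printed above, measured 1.42, 1.498 and 2.20 RPKM of H3K18La at 5 mM and 12.5, 6.32 and 4.43 at 25 mM. The log2 fold change there was 1.80 (SE 0.40, limma adjusted p = 0.00603), and it passed in all 6 fits with a library left out but not when scaled to reads in peaks (0.56), centred (0.89) or thinned (1.327, limma adjusted p = 0.0537). Its H3K27Ac was 6.49 and 10.97 against 46.3 and 27.9 RPKM (log2 fold change 2.03, SE 0.52, limma adjusted p = 0.00229). That change was 0.79 when scaled to reads in peaks (limma adjusted p = 0.155) and passed in 2 of 4 fits with a library left out. The intronic peak had a higher RPKM than the promoter in each of the 10 libraries.

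At Sirt1, acetylation rose over both starts, and lactylation did not pass over one with all libraries and was too weak to test over the other. SIRT1 is a nuclear deacetylase of histones and transcription factors. The leading promoter peak (Sirt1 peak 7, chr10:63381390-63382908) covers a start of Sirt1 and, on the other strand, one of Dnajc12. H3K27Ac there was 5.48 and 7.95 RPKM at 5 mM and 18.7 and 19.7 at 25 mM (log2 fold change 1.47, SE 0.50, limma adjusted p = 0.0166). H3K18La was 0.312, 1.65 and 0.970 against 3.35, 2.27 and 2.66 RPKM, without overlap but just short of the threshold (log2 fold change 1.24, SE 0.47, limma adjusted p = 0.0575). It passed in voom (adjusted p = 0.0334) and without replicate 2 at 5 mM (limma adjusted p = 0.0444). The weaker Sirt1 peak 3 (chr10:63338358-63340124) holds the RefSeq window, which has 7 GC boxes and the highest GC content of the deacylase windows at 79.0%. H3K27Ac rose there from 3.53 ± 0.55 to 10.2 ± 5.70 RPKM (SD, n = 2; log2 fold change 1.31, limma adjusted p = 0.0201). Its H3K18La, at 7 and 13 pooled reads, was under the minimum for testing. In intron 1, Sirt1 peak 6 held H3K18La of 2.05 ± 1.52 and 2.81 ± 2.24 RPKM (SD, n = 3; limma adjusted p = 0.669) and H3K27Ac of 4.08 ± 0.40 and 7.42 ± 0.17 RPKM (SD, n = 2; limma adjusted p = 0.154).

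At the Sirt3 promoter acetylation rose, and lactylation was too weak to test. SIRT3 is the main deacetylase of mitochondria. Its only peak (chr7:140881637-140882434) covers starts of Sirt3 and, on the opposite strand, of the proteasome gene Psmd13. H3K27Ac was 2.90 and 7.67 RPKM at 5 mM and 22.5 and 11.3 at 25 mM (log2 fold change 1.64, SE 0.48, limma adjusted p = 0.00661). Scaled to reads in peaks this change was 0.45 (limma adjusted p = 0.494). It also did not pass when the replicate number was added to the fit (limma adjusted p = 0.0659). H3K18La was 1.19, 0.725 and 0 RPKM at 5 mM and 1.28, 0.925 and 0 at 25 mM. That is 5 pooled reads at each level, and the peak was under the minimum for testing.

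The marks were then compared with each other, since a call for one and not for the other does not show that they differ. Of the deacylase peaks, 6 rose for both marks (the promoters of Hdac2, Hdac5, Hdac9 and Sirt2, Hdac9 peak 13 and Sirt2 peak 2), while 6 rose for H3K18La and did not pass for H3K27Ac. A further 8 rose for H3K27Ac without passing for H3K18La, and 7 rose for H3K27Ac where H3K18La was too weak to test. The 6 shared peaks were 50.0% of the 12 higher for H3K18La and 28.6% of the 21 higher for H3K27Ac, against 51.6% and 51.4% over all peaks, and 14.0% of the 43 deacylase peaks tested for both marks, against 22.0% of all peaks so tested. The test of the difference between the glucose changes called 0 of 62 deacylase peaks in limma and in voom (0% of all 72467 peaks tested), with 2 at an unadjusted p under 0.05, or 3.23% against 5.04% over all peaks. Only 43 of the 62 were strong enough to be tested for each mark alone, since a peak could enter through its H3K27Ac libraries. Those 2, which are no more than the background share, were the Hdac4 promoter, where the H3K18La change was smaller by a log2 difference of -1.76 (SE 0.59, limma adjusted p = 0.903), and Hdac4 peak 7 in intron 2 (log2 difference -1.97, SE 0.90), which rests on 5 and 1 pooled H3K18La reads. At Hdac5 peak 3 the log2 difference was 1.35 (SE 0.93), and at the Hdac9 promoter it was 0.05 (SE 0.50).

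**Figure D4:**
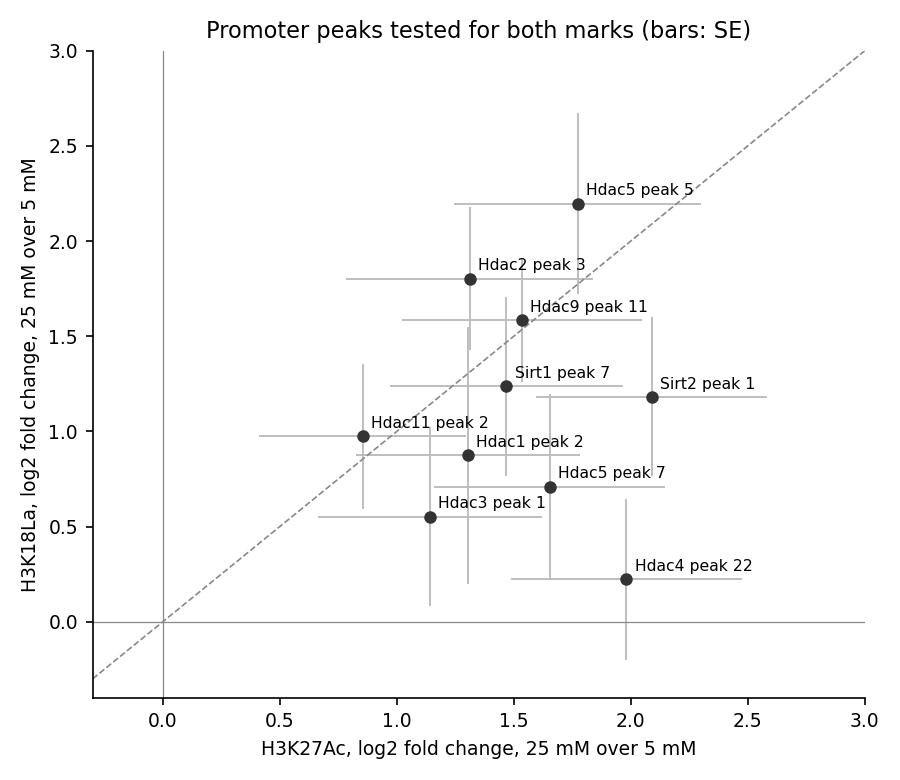
Log2 fold change (25 mM over 5 mM) of H3K18La against that of H3K27Ac for the 10 deacylase promoter peaks tested for both marks, with SE bars and the line of equal change dashed. The Hdac4 promoter (Hdac4 peak 22) lies farthest below the line, at 1.98 for H3K27Ac and 0.22 for H3K18La.

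Because fold changes were above 0 at most peaks, the reads in deacylase peaks were also expressed as a percent of the reads in all peaks of the same library, which is not moved by a change common to all peaks. No test was made of this sum over chosen genes. For H3K18La the share was 0.0734%, 0.0754% and 0.0792% at 5 mM and 0.0700%, 0.0675% and 0.0611% at 25 mM, so all 25 mM libraries were lower. The ratio of the means was 0.871, and it became 1.09 over the 13 promoter peaks and 1.01 without Hdac4 and Hdac9. For H3K27Ac the share was 0.118% and 0.112% at 5 mM and 0.119% and 0.116% at 25 mM, a ratio of 1.02. Over the promoter peaks it rose from 0.0506% and 0.0510% to 0.0701% and 0.0595%, a ratio of 1.28, and without Hdac4 and Hdac9 the ratio was 1.16. No share was taken over all promoters, and a change common to promoters does move these values. Scaled to reads in peaks, the median H3K27Ac log2 fold change was 0.07 over all tested promoters and 0.25 over deacylase promoters. It was -0.22 over all tested peaks.

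**Figure D5:**
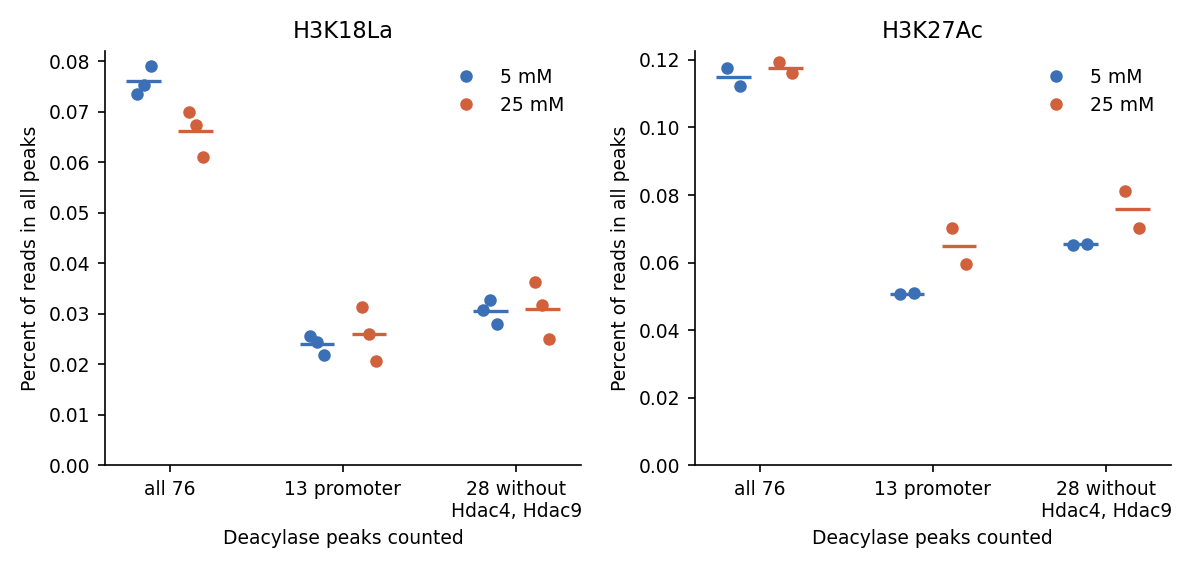
Reads in deacylase peaks as a percent of reads in all peaks, per library (points) with group means (bars), over all 76 peaks, the 13 promoters, and the 28 peaks left without Hdac4 and Hdac9. Over all 76 peaks the H3K18La libraries at 25 mM (0.0611% to 0.0700%) lie below those at 5 mM (0.0734% to 0.0792%), and over the promoters the H3K27Ac libraries at 25 mM lie above those at 5 mM. No share over the promoters of all genes was taken.

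The genes kept a wide range of promoter levels. For H3K18La at 25 mM the order of mean RPKM was Hdac2 (10.7), Hdac9 (8.93), Hdac5 (7.36), Sirt2 (3.13), Hdac11 (3.04), Sirt1 (2.76), Hdac4 (2.25), Hdac3 (1.98), Hdac1 (1.65) and Sirt3 (0.733). Only the step from Hdac5 to Sirt2 separated neighbours whose libraries did not overlap. Among the 14562 genes with a promoter peak, whose median was 1.95 RPKM, Hdac2 stood at percentile 96.5, Hdac9 at 95.0, Hdac5 at 92.9 and Sirt3 at 10.8. At 5 mM Hdac9 (2.76) and Hdac2 (2.51) led, and Hdac2 lay above the next gene, Hdac4 (1.73), in every library. For H3K27Ac at 25 mM the order was Hdac5 (39.3), Hdac2 (34.5), Hdac9 (26.98), Sirt2 (22.5), Hdac4 (22.3), Sirt1 (19.2), Sirt3 (16.9), Hdac1 (14.0), Hdac3 (12.8) and Hdac11 (6.62 RPKM). The steps from Hdac9 to Sirt2 and from Hdac3 to Hdac11 were free of overlap. Hdac11 was thus in the upper part of the range for lactylation, at percentile 72.0, and below the middle for acetylation, at 43.7, both at 25 mM.

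The promoters whose log2 RPKM followed Hdac1 most closely over the 10 libraries were those of Map6d1 (Pearson r = 0.991), Pfkfb4 (0.989) and Ap2m1 (0.989). For Sirt1 they were Arl6ip5 (0.995), Qdpr (0.994) and Zfp866 (0.993). These values describe the libraries, which share the difference in level between the marks and between the glucose levels: 1928 of 12656 genes had an r above 0.9 with Hdac1 and 4691 with Sirt1.

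The remaining deacylases and the partners of class I enzymes in corepressor complexes gave context. Of Hdac6, Hdac7, Hdac8, Hdac10, Sirt4, Sirt5, Sirt6 and Sirt7, 6 had a promoter peak and Sirt6 and Sirt7 had none. For H3K18La 2 of 4 tested were higher, with log2 fold changes from 0.98 (Sirt4, a mitochondrial sirtuin) to 1.46 (Hdac7, class IIa), and for H3K27Ac 5 of 6, from 0.91 (Hdac6, the tubulin deacetylase) to 1.70 (Sirt4). Of 28 subunits of corepressor complexes, 25 had a promoter peak. For H3K18La 4 of 18 tested were higher, from 0.06 (Sin3a, a scaffold) to 1.76 (Tbl1xr1, of the NCoR complex), and for H3K27Ac 20 of 25, from 0.48 (Mta3, of NuRD) to 2.00 (Tbl1x, of the NCoR complex). For the deacylase genes themselves the counts were 4 of 9 and 8 of 10, and for all genes with a tested leading promoter 32.6% and 59.1% were higher.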

How the data were processed

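CUT&Tag libraries of retinal explants (H3K18La, 3 per glucose level; H3K27Ac, 2 per level) were grouped by their labels. The labels' protocol lists an H3K9me3 antibody where the titles and the study's methods name H3K27Ac; the titles were followed. The authors aligned reads to GRCm38, called peaks with MACS, annotated them with ChIPseeker 1.34.1 (promoter, -1000 to 500 bp of a start), counted reads with csaw 1.32.0 and deposited RPKM values for one set of peaks. Whether their normalization factors enter the denominators is not given in the sources used here. A second deposited table holds the authors' own H3K18La fold changes and p-values (edgeR 3.40.2) and was not used. All RPKM values were whole multiples of 1 read within 0.001, which gave the reads and denominators. Reads were counted without molecular identifiers, and libraries of a group could differ by more than counting error. The Hdac2 promoter held 543 and 245 H3K27Ac reads at 25 mM, with totals of 7193094 and 7424470.

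Every peak whose mean RPKM over the libraries of a fit reached 1 was tested with limma 3.58.1 (lmFit, eBayes with trend; R 4.3.3) on log2(RPKM + 0.5), which understates changes of weak peaks, with Benjamini-Hochberg adjustment over all peaks tested. Calls were made at an adjusted p of 0.05. Because RPKM values are not counts, this stood in for the count model of the authors. The marks were fitted separately, and the difference between them over 10 libraries. The fits were tested on simulated data. Alternatives covered the minimum, the pseudocount (0.1, 1), scaling, voom, thinning, a replicate block and each library left out. Motifs and GC content were read from RefSeq windows and the GRCm38.p6 genome, on both strands, and starts from GENCODE. The genes, lists and tests were chosen with earlier results of these data known. Named peaks were all promoter peaks, the strongest non-promoter peak of each gene and, per mark, the 3 largest rises and 3 largest falls among called non-promoter peaks, where 0 falls were called; peaks outside this rule (Hdac9 peak 13, Hdac4 peaks 7, 9 and 31, Hdac5 peaks 2 and 6, Hdac9 peak 9 and the H3K27Ac peaks with lower libraries) were named after their values were seen. Tables and figures were made in Python 3.11.15 (pandas 2.3.3, matplotlib 3.10.9).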

Additional observations from a re-analysis of the deposited data

How the results depend on the processing

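The number of deacylase peaks called for H3K18La, 12, fell to 7 with a pseudocount of 0.1, to 4 after thinning to equal depth and to 0 when libraries were scaled to reads in peaks or centred on their median, and rose to 20 with voom; it lay between 6 and 11 with a library left out, reaching 6 without replicate 2 or replicate 3 at 25 mM. Of the 12 peaks, 6 passed every such fit. The 4 leading promoters called became 0 under both scalings and 1 after thinning. Over the 9 leading promoters tested, the median log2 fold change was 1.18 in the main fit and 1.22 thinned. It fell to 0.07 scaled to reads in peaks and to 0.27 centred. For H3K27Ac, the 21 peaks fell to 0 without the minimum, scaled to reads in peaks or thinned and to 1 when centred, and lay between 0 and 31 with a library left out, while the 8 leading promoters became 0, 0, 0 and 1 under the same settings and between 0 and 9. Whether replicate numbers pair the libraries is not known. Deviations of libraries with the same number correlated at 0.008 to 0.031 in H3K18La and 0.021 in H3K27Ac. Not every H3K18La library correlated best with its own number. These values cannot decide the pairing, since the median peak held only 1 to 11 reads per library. With 2 libraries per level, all H3K27Ac correlations also have the same size. Under the replicate block, where H3K18La at Hdac9 peak 10 passed (limma adjusted p = 0.0460), 11 peaks were called for H3K18La and 4 for H3K27Ac, 2 of them leading promoters. The difference between marks was called at 0 deacylase peaks under every alternative. The share ratios of 0.871 and 1.02 moved to 1.09 and 1.28 over promoters and to 1.01 and 1.16 without Hdac4 and Hdac9.

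Scaling to reads in peaks moved the median of all peaks to 0.03 for H3K18La and -0.22 for H3K27Ac, and signs turned with it: 16 of 45 deacylase peaks stayed above 0 for H3K18La (40 before) and 19 of 64 for H3K27Ac (56 before). Of the peaks called, 10 of 12 and 19 of 21 stayed above 0, the others being Hdac9 peak 13 (-0.11) and Hdac4 peak 31 (-0.062) for H3K18La and Hdac5 peak 2 (-0.022) and Hdac5 peak 6 (-0.021) for H3K27Ac. Called H3K27Ac changes became 0.066 at the Hdac2 promoter, 0.53 and 0.44 at Hdac5 peaks 5 and 7, and 0.14 and 0.30 at Hdac9 peaks 10 and 11. They became 0.38 at Hdac4 peak 12, 0.20 at Hdac11 peak 1, and 0.13 and 0.25 at Sirt1 peaks 3 and 7. Among the other peaks named, log2 fold changes of H3K18La became -0.053 at Hdac1 peak 1, -0.74 at Hdac2 peak 2, -0.52 at Hdac3, -0.36 at Hdac4 peak 14, -0.95 at the Hdac4 promoter, -0.44 at Hdac5 peak 7, -0.18 at the Hdac11 promoter and -0.76 at Sirt1 peak 6. Those of H3K27Ac became -0.29 at Hdac1 peak 1, -0.063 at Hdac3, -0.19 at Hdac4 peak 14, -0.49 at Hdac5 peak 3, -0.14 at Hdac9 peak 8, -0.10 at Hdac9 peak 17, -0.31 at the Hdac11 promoter and -0.38 at Sirt1 peak 6. H3K27Ac also turned at Hdac4 peak 9 (-0.18) and Hdac4 peak 31 (-1.10). Centring turned H3K18La at the Hdac1 promoter (-0.036), Hdac2 peak 2 (-0.61), Hdac3 (-0.36), Hdac4 peak 14 (-0.11), the Hdac4 promoter (-0.69), Hdac5 peak 7 (-0.20) and Sirt1 peak 6 (-0.56). With a library left out the H3K18La change lay between -0.10 and 0.49 at the Hdac4 promoter and between -0.25 and 0.90 at Sirt1 peak 6, turning negative without replicate 1 at 25 mM in the first and without replicate 2 at 5 mM or at 25 mM (-0.17) in the second. The causes were not tested. With recovered totals of 1358008 to 7424470, the libraries limit what can be said of weak peaks, above all for H3K18La at 5 mM.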
